A study of Homo sapiens with 6 samples.

Results

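The genes described are 10 subunits, inhibitors and target genes of NF-κB, the transcription factor of inflammatory and survival signalling. They were taken by symbol from the expression tables of A549-TIPARP and A549-GFP cells, and they are 10 of the 53826 gene entries in each table. The parent line, A549, was derived from a human adenocarcinoma of the lung. A549-TIPARP cells hold an integrated pMXs retroviral vector with the coding region of TIPARP, an ADP-ribosyltransferase that is induced by dioxin. A549-GFP cells hold the same vector with GFP, so both lines were transduced, and both are described as stable overexpression. Whether either line is a clone or a pool of transduced cells is not given in the sources used here. RNA of each line was sequenced in 3 libraries, numbered by experiment, and expression was given as log2 TPM, the share of transcripts corrected for transcript length. Nothing in the labels says that the experiments were separate cultures, so the p-values measure the spread between libraries, which may be technical.

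NF-κB is a dimer of Rel proteins. RELA pairs mainly with the NFKB1 product in the canonical pathway, and RELB pairs with the NFKB2 product in the noncanonical pathway. Inhibitors of the IκB class hold the dimers in the cytoplasm until a kinase complex marks them for degradation. The freed dimers switch on genes of inflammation and survival, and also their own inhibitors, so that NFKBIA and TNFAIP3 close negative feedback loops. In lung epithelial cells the pathway is known as the responder to TNF, interleukin 1 and bacterial products.

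No member differed between A549-TIPARP and A549-GFP cells at an adjusted p under 0.05. NFKBIA was lower in every A549-TIPARP library than in every A549-GFP library, on average 1.48-fold with all libraries and 1.28-fold without A549-GFP replicate 2. Of all analysed genes (TPM above 2 in at least 1 library), 3.54% were likewise lower in every A549-TIPARP library. TNFAIP2 was 1.10-fold higher in A549-TIPARP cells with all libraries, where the lines overlapped, and 1.51-fold higher once A549-GFP replicate 2 was left out. Every A549-TIPARP library then lay above A549-GFP replicates 1 and 3, as for 21.2% of all analysed genes. Larger differences lay within the A549-GFP line, where replicate 2 held 4.43-fold more RELB and 2.57-fold more TNFAIP2 than the mean of replicates 1 and 3.

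That library stood apart beyond these genes. Its values deviated from the line mean by 0.621 on the log2 scale (root mean square over the analysed genes), against 0.361 and 0.400 for the other A549-GFP libraries and 0.185 to 0.330 for the A549-TIPARP libraries. Its general log2 level lay 0.27 above that of the mean library. The comparisons of the members are therefore given with and without it, and the levels of a gene are given in the order of replicates 1, 2 and 3 of each line. TIPARP itself, the overexpressed gene, was at 6.79, 11.4 and 3.68 TPM in the A549-GFP libraries and at 131, 90.5 and 123 TPM in the A549-TIPARP libraries, 17.2-fold higher with all libraries and 22.7-fold higher without A549-GFP replicate 2. Of the epithelial markers EPCAM, CDH1, KRT8, KRT18 and KRT19, 0 of 5 were listed at 0, and their summed level was 19356 to 21244 TPM in A549-GFP replicates 1 and 3, 16520 to 19963 TPM in the A549-TIPARP libraries and 8341 TPM in A549-GFP replicate 2. Nearly all of the sum was KRT8 and KRT18, and the other markers were at lower levels. CDH1 was at 75.4, 142 and 61.0 TPM in the A549-GFP libraries, highest in replicate 2. EPCAM was at 221, 166 and 175 TPM there, lowest in replicate 2 but within the range of the A549-TIPARP libraries (126 to 167 TPM). KRT19 was at 4.57, 2.54 and 5.36 TPM in the A549-GFP libraries and at 19.2, 19.0 and 10.9 TPM in the A549-TIPARP libraries. KRT19 was also lowest in A549-GFP replicate 2. It did not overlap between the lines, and was 4.0-fold higher in A549-TIPARP cells with all libraries and 3.20-fold higher without A549-GFP replicate 2 (limma adjusted p = 0.283 and 0.225).

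To show what the members share in sequence, RefSeq promoter windows (GRCh38.p14) were searched on both strands for the 10-base κB consensus GGGRNWYYCC. Each window ran from 250 bases before to 50 bases after an annotated start. In the consensus R is A or G, N is any base, W is A or T and Y is C or T. The table held 12 windows of 8 members, and RELB and NFKBIE had no entry. A match lay in 6 of the 12 windows, against 5.91% of the 35116 windows of all genes. By gene, 5 of 8 members had a match (NFKB1, NFKB2, NFKBIA, TNFAIP3 and BIRC3), against 7.09% of 27305 genes. The members were picked as known NF-κB genes, so a higher share than that of all genes follows in part from the choice. No match to the consensus was found for RELA, TNFAIP2 and ICAM1. Sequences that depart from it by a base were not counted, such as tggaaattcc in the ICAM1 window. A window without a match can therefore still hold a κB site. Upstream sequences are printed for NFKBIA, the member lower in every A549-TIPARP library, and for NFKB2, TNFAIP3, BIRC3 and TNFAIP2, which stood over 2-fold higher in A549-GFP replicate 2. Capitals mark the consensus matches, and TNFAIP2 is shown as a window without one. The windows are NFKBIA at chr14:35404750-35404999 (minus strand), NFKB2 at chr10:102394328-102394577 (plus strand), the second of its 3 starts, TNFAIP3 at chr6:137867009-137867258 (plus strand), BIRC3 at chr11:102317234-102317483 (plus strand) and TNFAIP2 at chr14:103123211-103123460 (plus strand), each ending at the base before the start.
NFKBIA: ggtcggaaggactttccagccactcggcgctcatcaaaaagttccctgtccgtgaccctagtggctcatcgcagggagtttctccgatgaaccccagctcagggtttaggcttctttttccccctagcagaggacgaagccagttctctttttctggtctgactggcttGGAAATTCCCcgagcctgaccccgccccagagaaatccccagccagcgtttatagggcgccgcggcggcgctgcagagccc
NFKB2, start 2: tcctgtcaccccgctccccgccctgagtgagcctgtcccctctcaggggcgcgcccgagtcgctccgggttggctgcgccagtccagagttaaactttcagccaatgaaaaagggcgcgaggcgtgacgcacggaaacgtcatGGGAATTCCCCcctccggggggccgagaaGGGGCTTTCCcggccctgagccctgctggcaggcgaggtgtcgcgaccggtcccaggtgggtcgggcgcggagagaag
TNFAIP3: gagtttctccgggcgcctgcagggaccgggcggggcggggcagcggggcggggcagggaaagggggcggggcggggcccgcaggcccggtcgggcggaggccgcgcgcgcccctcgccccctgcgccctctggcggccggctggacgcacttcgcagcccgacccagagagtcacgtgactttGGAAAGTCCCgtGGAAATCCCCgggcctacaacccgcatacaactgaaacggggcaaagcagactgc
BIRC3: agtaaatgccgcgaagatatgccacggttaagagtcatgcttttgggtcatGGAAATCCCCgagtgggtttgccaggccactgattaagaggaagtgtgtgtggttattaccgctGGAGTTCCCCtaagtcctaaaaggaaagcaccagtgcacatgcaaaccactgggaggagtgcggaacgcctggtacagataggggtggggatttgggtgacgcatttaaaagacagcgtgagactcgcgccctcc
TNFAIP2: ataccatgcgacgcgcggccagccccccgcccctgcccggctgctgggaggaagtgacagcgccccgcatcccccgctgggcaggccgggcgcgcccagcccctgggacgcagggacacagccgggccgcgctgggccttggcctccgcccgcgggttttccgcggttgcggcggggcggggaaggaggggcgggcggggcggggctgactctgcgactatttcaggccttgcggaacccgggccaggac

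Counted from the start site, the NFKBIA match began at -81 and the TNFAIP3 matches at -67 and -55. The BIRC3 matches began at -199 and -135. In the second NFKB2 window, overlapping matches on both strands began at -107 and -106, with another match at -78. A match describes letters in the window and not bound protein, and the windows do not cover more distant sites.

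**Figure D1:**
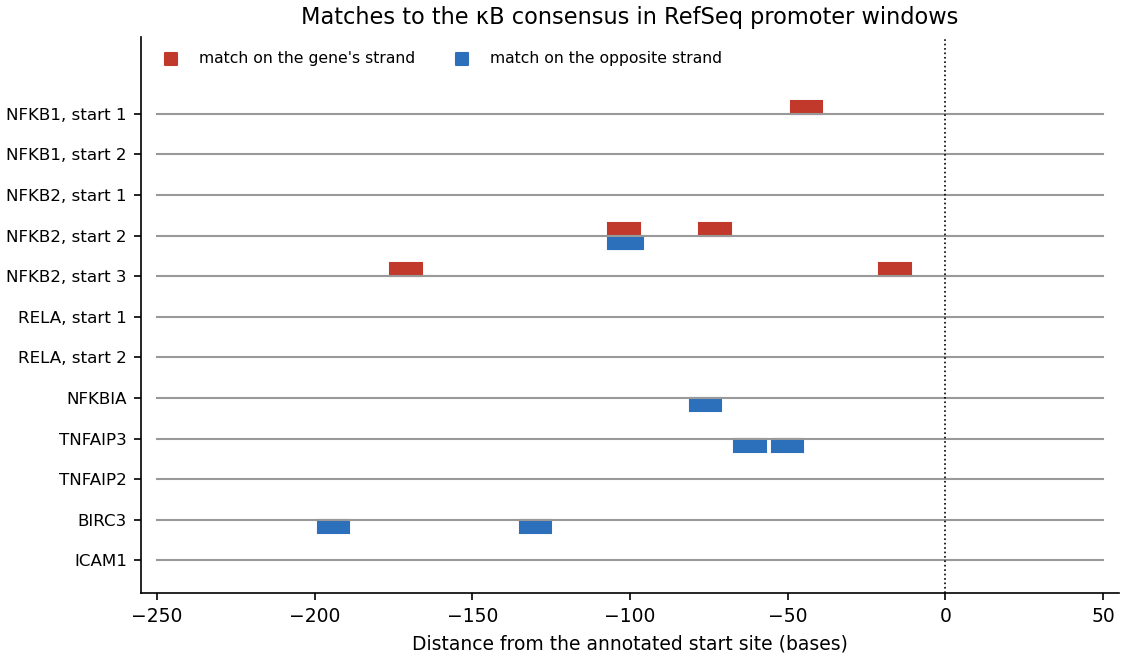
Positions of κB consensus matches in the promoter windows of 8 members. Each line is 1 window from 250 bases before to 50 bases after an annotated start, the x axis is the distance from the start in bases, and coloured blocks mark matches on either strand. Matches lie in 6 of the 12 windows, all of them upstream of the start.

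Among the subunits, RELA, the transactivating subunit of the canonical dimer (chr11:65653599-65663090, hg38), was the most abundant. Its level was 63.9, 83.1 and 63.1 TPM in the A549-GFP libraries and 65.9, 63.9 and 70.2 TPM in the A549-TIPARP libraries. The lines overlapped, and the log2 fold change (A549-TIPARP minus A549-GFP) was -0.06 with all libraries and 0.07 without A549-GFP replicate 2. In limma, which was fitted across all analysed genes on log2(TPM + 1), the interval of the difference was -0.47 to 0.35 with all libraries and -0.20 to 0.34 without that replicate (95%).

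NFKB1, whose product p105 is processed to the canonical partner of RELA (chr4:102501330-102617302), was at 15.1, 17.9 and 12.2 TPM in the A549-GFP libraries and at 14.2, 15.8 and 12.5 TPM in the A549-TIPARP libraries. The ranges lay within each other, and the log2 fold change was -0.08 with all libraries and 0.06 without A549-GFP replicate 2 (limma adjusted p = 0.995 and 0.934). NFKB2, whose product p100 is the precursor and the inhibitor of the noncanonical pathway (chr10:102394110-102402524), was at 15.4, 39.4 and 18.5 TPM in the A549-GFP libraries and at 14.1, 19.9 and 14.1 TPM in the A549-TIPARP libraries. Its log2 fold change of -0.50 (limma estimate -0.48 ± 0.34 SE, adjusted p = 0.994) became -0.10 (-0.09 ± 0.21 SE, adjusted p = 0.901) without A549-GFP replicate 2.

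RELB, the transactivating subunit of the noncanonical dimer (chr19:45001461-45038192), was at 6.65, 31.7 and 7.72 TPM in the A549-GFP libraries and at 7.51, 9.65 and 10.8 TPM in the A549-TIPARP libraries. A549-GFP replicate 2 was the only library above 11 TPM, and the other 5 libraries overlapped between the lines. The log2 fold change turned from -0.35 with all libraries (limma estimate -0.34 ± 0.51 SE, adjusted p = 0.994) to 0.36 without that replicate (0.33 ± 0.20 SE, adjusted p = 0.636). Neither value passed the adjusted test, and both limma intervals include 0.

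Of the inhibitors, NFKBIA (chr14:35401079-35404749), which encodes IκBα and is itself induced by NF-κB, was at 99.97, 167 and 115 TPM in the A549-GFP libraries and at 81.0, 91.4 and 80.1 TPM in the A549-TIPARP libraries. All A549-TIPARP libraries were below all A549-GFP libraries, with or without replicate 2. The log2 fold change was -0.57 (limma estimate -0.56 ± 0.21 SE, 95% interval -1.05 to -0.07, adjusted p = 0.994). Without A549-GFP replicate 2 it was -0.35 (-0.35 ± 0.13 SE, 95% interval -0.67 to -0.04, adjusted p = 0.434). NFKBIA had an unadjusted p under 0.05 in both fits, but it did not pass the adjustment over 13181 genes in either fit.

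NFKBIE (chr6:44258166-44265788), which encodes the related inhibitor IκBε, was at 6.18, 8.51 and 6.49 TPM in the A549-GFP libraries and at 6.17, 8.61 and 5.74 TPM in the A549-TIPARP libraries. The second replicate was the highest of each line, and NFKBIE was the one analysed member whose highest value was not in A549-GFP replicate 2. Its log2 fold change was -0.05 with all libraries and 0.09 without that replicate (limma adjusted p = 0.998 and 0.910).

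Of the target genes, TNFAIP3 (chr6:137867214-137883314), which encodes the ubiquitin-editing feedback inhibitor A20, was at 1.01, 6.61 and 1 TPM in the A549-GFP libraries and at 1.34, 1.23 and 1 TPM in the A549-TIPARP libraries. The values of 1 are the floor of the tables, at which every TPM below 1 was set. TNFAIP3 passed the filter on low values through A549-GFP replicate 2 alone. The log2 fold change, which rests on the floor, was -0.68 with all libraries and 0.23 without that replicate (limma adjusted p = 0.994 and 0.730).

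TNFAIP2 (chr14:103121476-103137439), a TNF-induced gene of the exocyst-related SEC6 family, was at 85.3, 211 and 78.8 TPM in the A549-GFP libraries and at 122, 120 and 130 TPM in the A549-TIPARP libraries. The A549-TIPARP libraries lay close together, above A549-GFP replicates 1 and 3 and below replicate 2. The log2 fold change was 0.14 with all libraries (limma estimate 0.14 ± 0.34 SE, adjusted p = 0.994). It was 0.59 without A549-GFP replicate 2 (0.59 ± 0.11 SE, 95% interval 0.32 to 0.86, adjusted p = 0.225).

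BIRC3 (chr11:102317484-102339403), which encodes the ubiquitin ligase and apoptosis inhibitor cIAP2, was at 6.31, 12.2 and 5.68 TPM in the A549-GFP libraries and at 6.37, 9.27 and 4.54 TPM in the A549-TIPARP libraries. Both lines were highest in replicate 2, and BIRC3 had the widest range among the A549-TIPARP libraries, 2.04-fold. The log2 fold change was -0.24 with all libraries and 0.11 without A549-GFP replicate 2 (limma adjusted p = 0.994 and 0.921).

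ICAM1 (chr19:10271093-10286615), the leukocyte adhesion molecule, was listed at 0 on the log2 scale in all 6 libraries and entered no comparison. The listing can be a failed estimate, since EIF4A1 and EIF4E, translation factors that every cell uses, were also listed at 0 in all libraries. These translation factors were picked with their values in view.

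**Figure D2:**
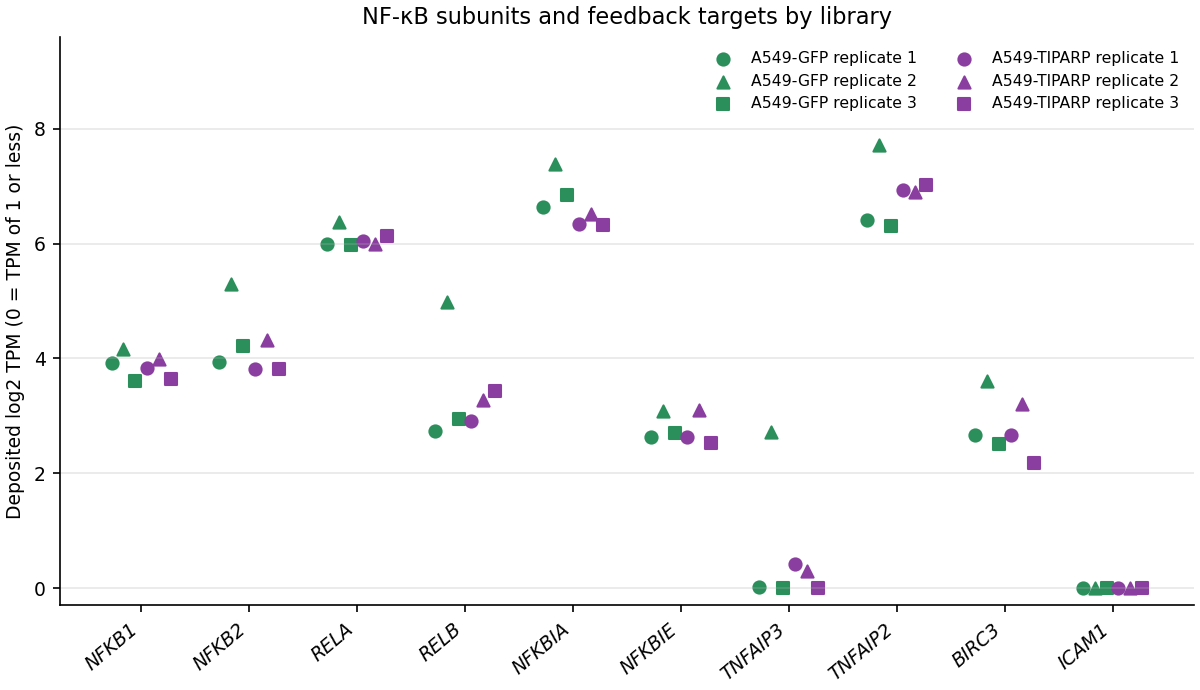
Expression of the 10 members in each library, as deposited log2 TPM on the y axis, where 0 stands for a TPM of 1 or less. Green points are A549-GFP libraries, purple points are A549-TIPARP libraries, and the shape gives the replicate. The green triangle, A549-GFP replicate 2, is the highest point of 8 of the 9 analysed members, and ICAM1 lies at 0 throughout.

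Levels in A549-TIPARP cells spanned from 124 TPM for TNFAIP2 (mean on the log2 scale) through 84.0 for NFKBIA and 66.6 for RELA to 15.8 for NFKB2 and 14.1 for NFKB1, followed by RELB at 9.22, NFKBIE at 6.73, BIRC3 at 6.45 and TNFAIP3 at 1.18 TPM. TNFAIP2, NFKBIA and RELA did not overlap with each other in these libraries. NFKB2 and NFKB1 overlapped, and so did RELB, NFKBIE and BIRC3. In A549-GFP replicates 1 and 3 NFKBIA stood first at 107 TPM, ahead of TNFAIP2 at 82.0 TPM.

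Of the 9 analysed members, 0 were called at an adjusted p under 0.05 with all libraries (limma), against 0.0152% of the 13181 analysed genes, and 0 without A549-GFP replicate 2, against 0.0228%. At an unadjusted p under 0.05 there was 1 member with all libraries (NFKBIA), against 3.85% of all genes. Without that replicate there were 2 (NFKBIA and TNFAIP2), against 10.5%. No member was past 2-fold in either direction. The share of all genes past 2-fold was 0.432% lower and 1.53% higher with all libraries, and 0.296% lower and 2.91% higher without A549-GFP replicate 2.

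Groups without overlap were few. Every A549-TIPARP library lay below every A549-GFP library for 1 member, NFKBIA, against 3.54% of all genes, and above for 0 members, against 5.36%. Without A549-GFP replicate 2 there was 1 member below (NFKBIA, against 6.42%) and 1 above (TNFAIP2, against 21.2%). For TNFAIP2 the count is therefore to be read against a background that also held many other genes.

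The direction of 6 members turned when A549-GFP replicate 2 was left out. The mean was lower in A549-TIPARP cells for 8 of 9 members with all libraries, against 59.9% of all genes, and for 2 of 9 (NFKB2 and NFKBIA) without it, against 42.6%. With all libraries the count was 6 of 9 after rescaling to the mean library, where RELA and NFKBIE turned to 0.0048 and 0.011 on the log2 scale. The sign turned for 6 of 9 members (NFKB1, RELA, RELB, NFKBIE, TNFAIP3 and BIRC3), against 30.7% of all genes. TNFAIP3 passed the filter through that replicate alone, and without it 7 of 8 members were lower with all libraries and 5 of 8 turned. The median log2 fold change of the members was -0.24 with all libraries (-0.16 over the 8 that exceeded 2 TPM in at least 3 libraries, which leaves out TNFAIP3) and 0.09 without that replicate, and that of all analysed genes was -0.07 and 0.05.

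**Figure D3:**
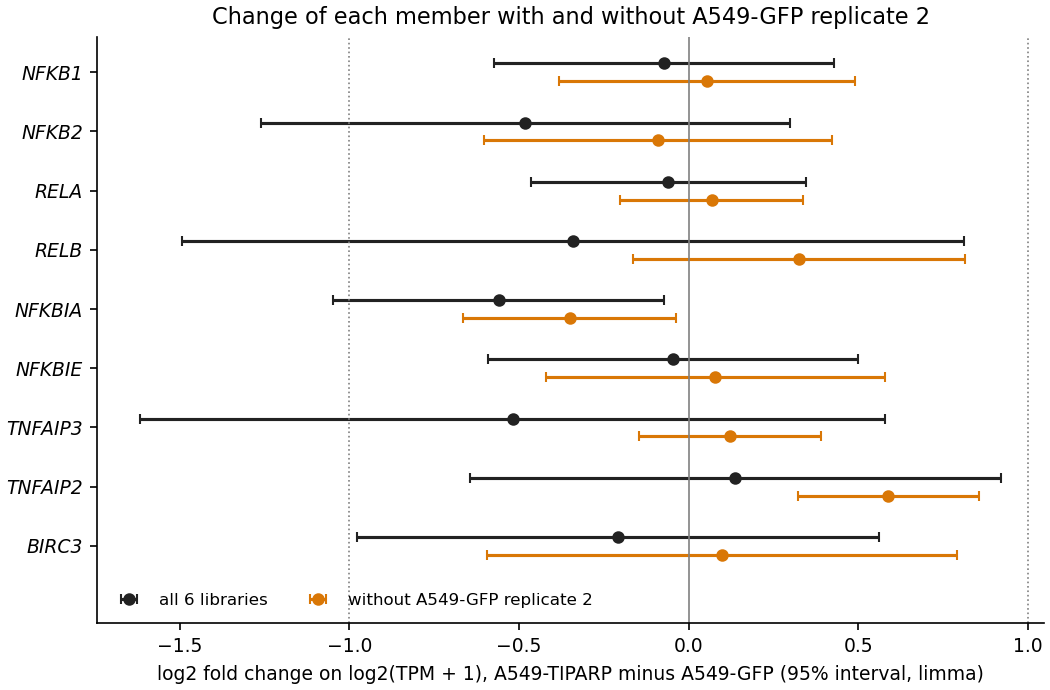
Log2 fold change on log2(TPM + 1) of each analysed member, A549-TIPARP minus A549-GFP, with its 95% limma interval, with all 6 libraries (black) and without A549-GFP replicate 2 (orange). Dotted lines mark 2-fold. The intervals are unadjusted, and those of NFKBIA lie below 0 in both fits while that of TNFAIP2 lies above 0 only without the replicate.

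Within the A549-GFP line, replicate 2 differed from the mean of replicates 1 and 3 by more than those differed from each other for 9 of 9 members, against 69.3% of all genes. TNFAIP3 had to be among them, since it entered the analysis through that library alone, and with replicates 1 and 3 at 1.01 TPM and at the floor its excess is not given as an exact value. Of the other members, the excess was largest for RELB (2.15 on the log2 scale), followed by TNFAIP2 (1.36), NFKB2 (1.22) and BIRC3 (1.03). It was smaller for NFKBIA (0.63), NFKBIE (0.43), NFKB1 (0.40) and RELA (0.39). The noncanonical subunits RELB and NFKB2 thus stood further out than the canonical RELA and NFKB1. With 1 library against 2 these are values without a test.

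Replicate 2 was over 2-fold above the mean of replicates 1 and 3 for 5 of 9 members (RELB, NFKB2, TNFAIP2, BIRC3 and, through the filter, TNFAIP3), against 18.0% of all genes. It was the highest of all 6 libraries for 8 of 9 members, against 52.0% of all genes. After each library was rescaled to the mean library by the median of the gene ratios, it was the highest for 6 of 9 members, against 31.5%. Without TNFAIP3 the counts were 4 of 8 over 2-fold, 7 of 8 highest and 5 of 8 highest after rescaling. The rescaled excess was 1.79 for RELB, 1.01 for TNFAIP2, 0.87 for NFKB2 and 0.68 for BIRC3. For NFKBIA it was 0.28, and for NFKBIE, NFKB1 and RELA it was between 0.03 and 0.07, near the median of all genes (0.03). The median excess was 1.03 over the 9 members (0.68 rescaled) and 0.83 over the 8 members without TNFAIP3 (0.48 rescaled), and that of all analysed genes was 0.38.

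The range of the A549-TIPARP libraries was under 2-fold for 8 of 9 members, all but BIRC3, against 90.5% of all genes. The range of the A549-GFP libraries was under 2-fold for 4 of 9 members, against 67.3% of all genes. Without TNFAIP3 the counts were 7 of 8 and 4 of 8. The highest A549-TIPARP value was in replicate 2 for 5 members, in replicate 3 for 3 and in replicate 1 for 1.

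The rest of the pathway was described by 4 lists. None of their genes passed an adjusted p under 0.05 (limma) with all libraries or without A549-GFP replicate 2. Of 17 receptors and adaptors, 14 were analysed and TNFRSF1B, TLR3 and TLR4 were listed at 0 in all libraries. At an unadjusted p under 0.05 there were 0 with all libraries, against 3.85% of all genes. Without that replicate there were 2 of 14 (TRADD and CD40), against 10.5%. None was past 2-fold in either comparison. The most abundant by the mean of each line was TNFRSF1A, the main TNF receptor of epithelial cells. It was at 368, 249 and 372 TPM in the A549-GFP libraries and at 311, 337 and 331 TPM in the A549-TIPARP libraries. In A549-GFP replicate 2 LTBR was above it, at 285 TPM. TNFRSF1A was lowest in A549-GFP replicate 2, unlike any analysed member, and its log2 fold change was 0.0087 with all libraries and -0.18 without that replicate.

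All 11 kinases and ubiquitin ligase subunits of the activating complexes were analysed, and 0 had an unadjusted p under 0.05 in either fit. The shares of all genes were 3.85% with all libraries and 10.5% without A549-GFP replicate 2. The most abundant, RBCK1, which encodes the HOIL-1 subunit of the linear ubiquitin ligase, was at 102, 166 and 95.4 TPM in the A549-GFP libraries and at 96.8, 95.4 and 92.3 TPM in the A549-TIPARP libraries. Its log2 fold change was -0.31 with all libraries and -0.06 without A549-GFP replicate 2. Of 10 other subunits, inhibitors and deubiquitinases, 9 were analysed. There were 0 at an unadjusted p under 0.05 with all libraries and 2 of 9 without A549-GFP replicate 2 (TNIP1 and CYLD), against the same shares of all genes. The most abundant by the mean of each line was BCL3, which encodes a nuclear IκB protein. It was at 62.5, 117 and 72.5 TPM in the A549-GFP libraries and at 61.3, 59.6 and 80.4 TPM in the A549-TIPARP libraries. Its log2 fold change was -0.29 with all libraries and -0.02 without A549-GFP replicate 2. In A549-TIPARP replicates 1 and 2 COMMD1 was above BCL3, at 68.7 and 75.3 TPM.

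Of 22 other target genes, 15 were analysed, and VCAM1, SELE, CSF2, TNF, LTB, IL6 and BCL2A1 were listed at 0 in all libraries. At an unadjusted p under 0.05 there were 2 with all libraries (PTGS2 and CCL20), against 3.85% of all genes. Without A549-GFP replicate 2 there were 4 (PTGS2, CCL20, IRF1 and PLAU), against 10.5%. PTGS2, CCL20 and CXCL2 were past 2-fold lower with all libraries, against 0.432% of all genes, and none was past 2-fold without A549-GFP replicate 2. PTGS2, the inducible cyclooxygenase of prostaglandin synthesis, was at 20.7, 77.1 and 17.4 TPM in the A549-GFP libraries and at 9.28, 15.4 and 11.2 TPM in the A549-TIPARP libraries. Like NFKBIA, it was below in every A549-TIPARP library, as were 3.54% of all genes. Its log2 fold change was -1.37 with all libraries and -0.70 without that replicate (limma adjusted p = 0.994 and 0.432).

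CCL20, a chemokine for dendritic and T cells, passed the filter through A549-GFP replicate 2 alone and was at 1.63, 7.14 and 1.75 TPM in the A549-GFP libraries and between the floor and 1.01 TPM in the A549-TIPARP libraries. With the A549-TIPARP libraries at or next to the floor, its difference is not given as an exact value, and its place past 2-fold rests on that floor and on A549-GFP replicate 2. CXCL2, a neutrophil chemokine, was at 9.52, 37.0 and 5.49 TPM in the A549-GFP libraries and at 6.24, 5.57 and 6.72 TPM in the A549-TIPARP libraries. Its log2 fold change moved from -1.02 to -0.23 without that replicate. IER3, an early response gene and the most abundant of these targets, was at 209, 461 and 261 TPM in the A549-GFP libraries and at 174, 258 and 187 TPM in the A549-TIPARP libraries, and its log2 fold change was -0.53 with all libraries and -0.20 without A549-GFP replicate 2.

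The excess of A549-GFP replicate 2 over replicates 1 and 3 had a median of 0.60 among the receptors and adaptors (0.25 rescaled), 0.75 among the kinases and ligase subunits (0.40 rescaled), 0.57 among the other subunits and inhibitors (0.22 rescaled) and 1.57 among the other targets (1.22 rescaled). Replicate 2 was over 2-fold above the mean of replicates 1 and 3 for 2 of 14, 2 of 11, 2 of 9 and 10 of 15 genes of these lists. The 10 targets include CCL20 and TRAF1, which passed the filter through replicate 2 alone, and without them there were 8 of 13 with the same median of 1.57. Replicate 2 was the highest library for 10 of 14, 8 of 11, 5 of 9 and 14 of 15, and after rescaling for 6 of 14, 5 of 11, 3 of 9 and 14 of 15. For CCL20 and TRAF1, among the 14 targets, the filter fixed in advance that it was the highest before rescaling. The counts describe the lists beside the shares of all genes given above, and no list was tested.

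**Figure D4:**
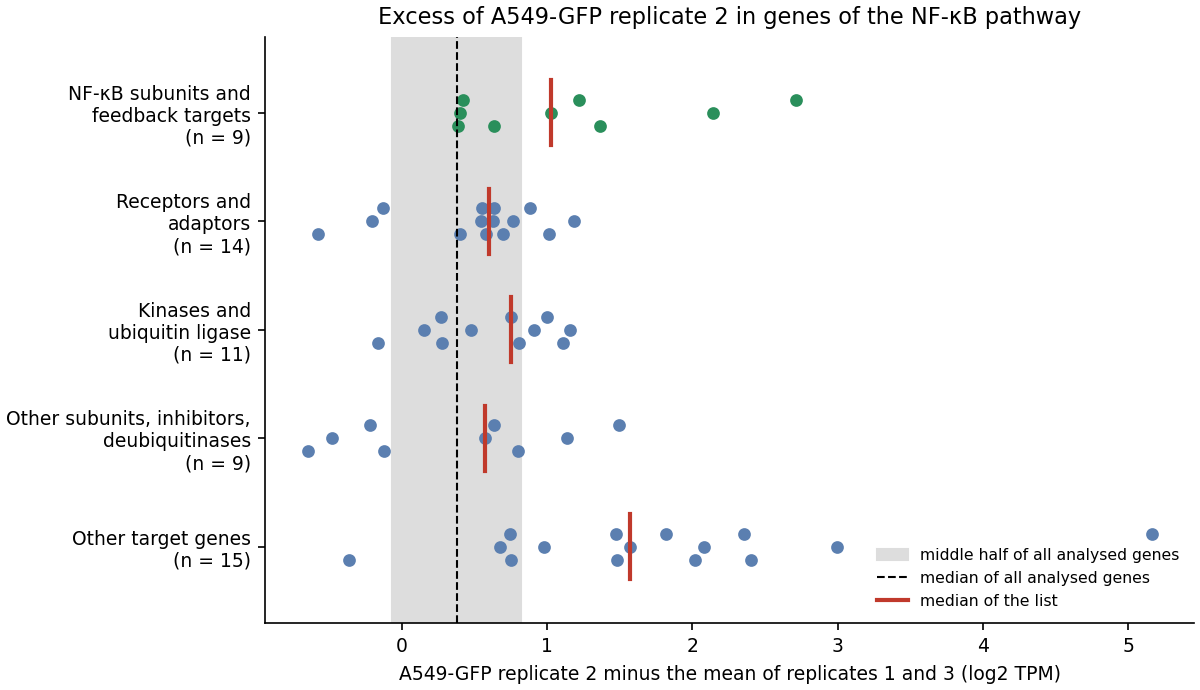
Excess of A549-GFP replicate 2 over the mean of A549-GFP replicates 1 and 3, in log2 TPM on the x axis, for the members and for 4 lists of other pathway genes, with 1 point per analysed gene. Red bars are list medians, the dashed line is the median of all analysed genes (0.38), and the grey band holds their middle quartiles. The members have a median of 1.03 (0.83 without TNFAIP3) and the other targets of 1.57, and the rightmost member point is TNFAIP3, set against libraries at or near the floor.

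Markers of other cell types moved with this library in part. The summed level of the 3 leukocyte markers above the floor in any library (CD14, CD68 and ITGAM) was 74.8 TPM in A549-GFP replicate 2, 30.1 and 32.5 TPM in replicates 1 and 3 and 29.1 to 42.7 TPM in the A549-TIPARP libraries. Most of it was CD68, a lysosomal protein that epithelial lines also express, at 28.1, 68.1 and 30.0 TPM in the A549-GFP libraries. The defining leukocyte markers PTPRC and CD3E were listed at 0 in all libraries, as were 4 of 4 endothelial markers and 3 of 4 fibroblast markers, and as for ICAM1 such a listing can be a failed estimate. The summed level of KRT8, KRT18 and the other epithelial markers was lowest in replicate 2, while CDH1 was highest in it, and the part of these values in the excess of the members was not tested. In bulk RNA, fewer cells that express a gene and less RNA per cell cannot be told apart.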

How the data were processed

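RNA of A549-TIPARP and A549-GFP cells was sequenced by the authors as paired-end stranded mRNA libraries (3 per line), aligned with Strand NGS to transcript sequences of the human build hg38 and quantified as TPM. The authors deposited log2 TPM per gene and library, with every TPM below 1 set to 1. No counts were used and the depth is unknown, so no counting error or lower limit was computed. The software version, the gene annotation and the handling of reads shared between genes or strands are not given in the sources used here.

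Lines and replicate numbers were taken from the sample titles. The 13181 genes that exceeded 2 TPM in 1 or more of the 6 libraries were analysed. Fold changes are differences of mean deposited log2 values. Tests used limma 3.58.1 (R 4.3.3, variance trend, two-sided) on log2(TPM + 1), which understates changes of low genes, with Benjamini-Hochberg adjustment over all analysed genes. The fit was tested on simulated data with added changes much larger than those of any member. That test does not cover changes of the members' size. Counts and plots were made in Python 3.11.15 with pandas 2.3.3 and matplotlib 3.10.9. Gene coordinates are from GENCODE 44 (hg38), and promoter windows from RefSeq (GRCh38.p14). The members and lists were chosen with earlier results of these data known. All members were named, together with TIPARP, list genes past 2-fold and the most abundant gene of each list. Genes listed beside a count of 5 or fewer, marker genes and genes listed at 0 were named after their values were seen. Alternatives were other pseudocounts, filters, scaling, means, no trend, a replicate block and each library left out. A marker gene of the cell type lists is not reported here.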

Additional observations from a re-analysis of the deposited data

How the results depend on the processing

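No member passed an adjusted p under 0.05 under any alternative run (limma). With all 6 libraries kept, the lowest adjusted p was 0.728 for NFKBIA (median-ratio rescaling) and 0.983 for TNFAIP2 (no filter). As each library was left out, it was 0.434 for NFKBIA and 0.225 for TNFAIP2, both without A549-GFP replicate 2. Among the alternatives to the fit without that replicate, the lowest were 0.246 and 0.135. With all libraries, the number of members past 2-fold lower was 0, became 1 (TNFAIP3) with arithmetic means of TPM, and ranged from 0 to 1 as each library was left out, being 1 when A549-GFP replicate 1 or replicate 3 was left out. The number with a lower mean was 8, and ranged from 2 (A549-GFP replicate 2 left out) to 9 (A549-GFP replicate 1 or replicate 3 left out), with 5 without A549-TIPARP replicate 3. The median log2 fold change of -0.24 was -0.16 with TPM above 2 in at least 3 libraries and -0.16 with no filter, and ranged from -0.45 (without A549-GFP replicate 3) to 0.088 (A549-GFP replicate 2 left out), with -0.37 without A549-GFP replicate 1, -0.38 without A549-TIPARP replicate 2 and -0.098 without A549-TIPARP replicate 3. Without A549-GFP replicate 2, the number with a lower mean was 2 and reached 5 without A549-TIPARP replicate 2, and the median log2 fold change of 0.09 ranged from -0.024 (without A549-TIPARP replicate 2) to 0.20 (without A549-TIPARP replicate 3). The cause was not tested.

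No log2 fold change that reversed had passed the adjusted test. With all libraries, RELA became 0.0048 and NFKBIE 0.011 with median-ratio rescaling, and TNFAIP2 became -0.013 with arithmetic means. As each library was left out, the values ranged from -0.22 to 0.057 for NFKB1, -0.13 to 0.069 for RELA, -0.76 to 0.36 for RELB, -0.23 to 0.088 for NFKBIE, -1.13 to 0.23 for TNFAIP3, -0.12 to 0.59 for TNFAIP2 and -0.50 to 0.11 for BIRC3. Without A549-GFP replicate 2, they ranged from -0.10 to 0.21 for NFKB1, -0.26 to 0.038 for NFKB2, -0.089 to 0.20 for NFKBIE and -0.16 to 0.36 for BIRC3. NFKBIA kept its sign in every alternative, at -0.72 to -0.35 with all libraries and -0.46 to -0.25 without A549-GFP replicate 2 as each library was left out. TNFAIP2 kept its sign without A549-GFP replicate 2, at 0.54 to 0.65.

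Whether the experiment numbers pair the libraries was not settled. The deviations of same-numbered libraries correlated at 0.415, -0.486 and -0.358 across genes. With 3 libraries per line these deviations depend on each other, and A549-GFP replicate 2 weighs on all of those of its line. A replicate block took the genes at an unadjusted p under 0.05 (limma) from 508 to 414 with all libraries. Without A549-GFP replicate 2 it took them from 1379 to 2369. With the replicate block, 0 members were called in either comparison, and without A549-GFP replicate 2 the log2 fold changes of NFKB1, NFKBIE and BIRC3 became -0.023, -0.077 and -0.13. Over all genes, the 2 called with all libraries were 1 with the block, 1 with no filter, and 1 to 3 as each library was left out. Without A549-GFP replicate 2, the 3 called were 19 with TPM above 2 in at least 3 libraries, 8 with the block, 5 with rescaling and 0 to 2 as each further library was left out. Where this left A549-GFP with 1 library, it was assumed to vary like the A549-TIPARP libraries. The fit with no filter covered the 14618 entries above the floor in at least 1 library, and ICAM1 could not be fitted. TPM carries no depth, so the precision of low genes such as TNFAIP3 is unknown.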
